A study of Mus musculus with 12 samples.

Results

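The collagen genes were taken as every gene whose symbol is Col, a number, the letter a and a number, such as Col1a1. The rule found 44 genes among the 49585 listed for each library, of which 11 encode chains of fibrillar collagens, 8 encode chains of basement membrane collagens and 25 encode other collagens. They were measured by RNA sequencing of whole mouse pancreas, in 12 libraries that form 4 groups of 3. The labels do not state that each library is 1 animal, so p-values measure the spread between these libraries. The groups were C57Bl6 control mice given cerulein (libraries O1, O3 and N3), C57Bl6 control mice given saline (W1, K5 and R3), congenic Atf3-/- mice given cerulein (C2, L4 and C3) and congenic Atf3-/- mice given saline (S1, K4 and Q1). All animals were 2 to 4 months old, and each had 4 injections over 4 h, cerulein at 50 ug/kg or saline, before the pancreas was taken at 4 h. Cerulein is a peptide that acts on the cholecystokinin receptors of acinar cells and is used to induce acute pancreatitis in rodents. The control mice are called wild type below. The labels do not state how the Atf3-/- allele was made, and the mice that carry it are called the labelled knockout.

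A collagen molecule is a triple helix of alpha chains, each from its own gene, and a chain is modified, folded and joined to its partners in the endoplasmic reticulum before it is secreted. Fibrillar collagens form the tensile fibrils of connective tissue, type IV chains form the sheet-like network of basement membranes, and the remaining types link, anchor or decorate these structures or span the plasma membrane. In the pancreas, fibroblasts and stellate cells are the known main source of fibrils, and collagen deposition is a known feature of chronic rather than early injury.

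Total counts ran from 18292997 to 32158629 per library. Atf3 itself, the targeted transcription factor gene, did not check the genotype label: it stood at 1375 CPM (C2), 1636 CPM (L4) and 20.7 CPM (C3) in the labelled knockout with cerulein and at 7.44 to 23.1 CPM in the labelled knockout with saline, against 394 to 775 CPM in wild type with cerulein and 1.13 to 5.28 CPM in wild type with saline. Library C3 lay near the saline libraries for Atf3, so results that involve it are given with and without it. CPM are counts scaled to equal library size after TMM normalization. Acinar enzyme markers filled much of every library, as whole pancreas should: the 6 genes summed to 187735 to 235708 CPM in wild type with cerulein and 277849 to 315481 CPM in wild type with saline, and to 203672 to 292229 CPM and 258394 to 385729 CPM in the labelled knockout with cerulein and with saline. Libraries N3 and K4 stood apart for 6 adipocyte markers, which summed to 279 and 342 CPM in them and to 7.55 to 89.3 CPM in the other 10 libraries. In bulk tissue such as this, fewer cells of a type and less RNA per cell cannot be told apart.

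Per length, the collagen mRNA with the highest mean was not of the fibrillar class. Levels per length are RPKM, which divide CPM by the length in kilobases of the transcript with the longest coding sequence. Col7a1, the chain of the anchoring fibrils that tie basement membranes to the tissue beneath, averaged 16.2 RPKM over the 12 libraries, and Col4a1, a chain of the common type IV network, averaged 15.2 RPKM. Col3a1, the chain of type III fibrils, averaged 13 RPKM and Col4a2, the partner of Col4a1, 9.4 RPKM. The type I chains Col1a2 and Col1a1 averaged 6.47 and 3.87 RPKM, on either side of the type VI chains Col6a2 (6.24 RPKM) and Col6a1 (6.01 RPKM). In all, 17 genes averaged at least 1 RPKM and 25 averaged below 0.5 RPKM.

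Several neighbours in this order did not differ beyond their spread over libraries. The level of Col7a1 exceeded that of Col4a1 in 8 of 12 libraries, Col4a1 exceeded Col3a1 in 7 of 12, and Col1a2 exceeded Col6a2 in 6 of 12. The step between Col6a1 and Col1a1 held in 12 of 12 libraries. With the merged length of all annotated exons in place of 1 transcript, Col4a2 passed Col3a1 and Col1a2 fell to rank 8. A library with no count for a gene allows up to 0.0781 to 0.194 CPM (3 counts, counting error only), and Col9a1, a chain of cartilage type IX collagen, had 0 counts in every library.

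**Figure D1:**
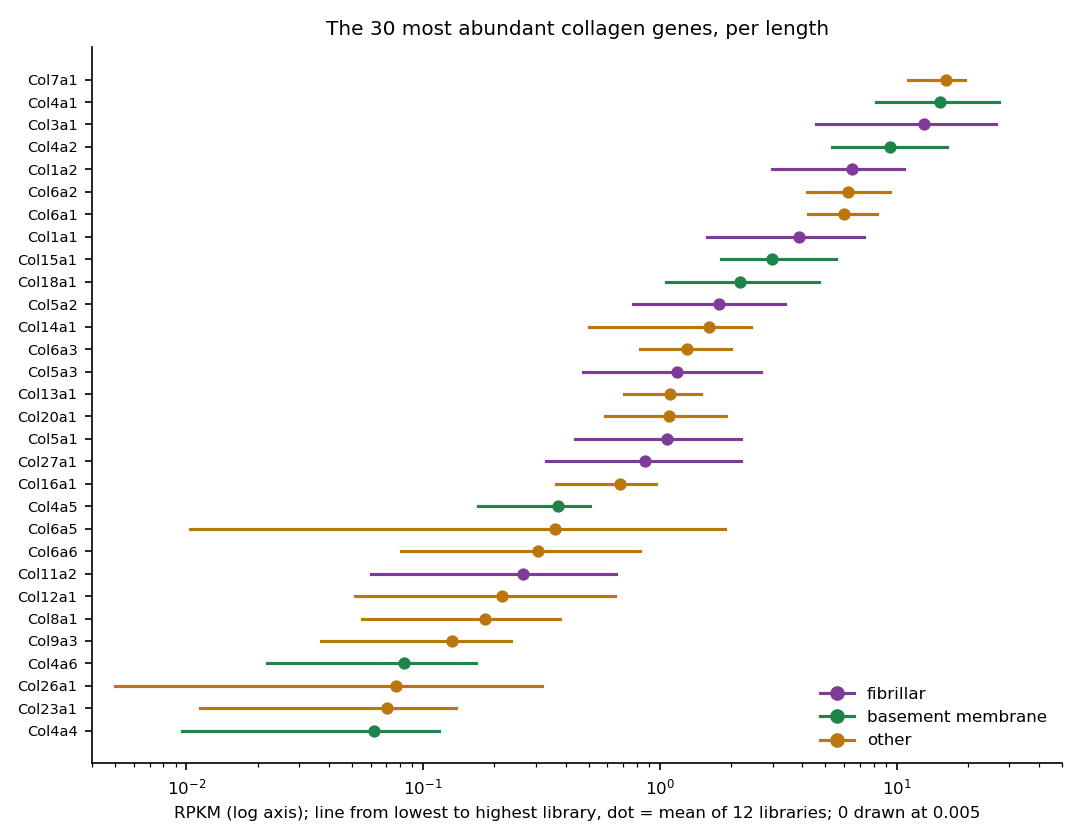
Mean level per length of the 30 most abundant collagen genes (RPKM, log axis); each line runs from the lowest to the highest of the 12 libraries, a value of 0 is drawn at 0.005, and colour marks the class. Col7a1 (16.2 RPKM), Col4a1 (15.2 RPKM) and Col3a1 (13 RPKM) lead, and their lines overlap.

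The first question was whether 4 h of cerulein changed collagen mRNAs in wild type. Of the 44 genes, 30 had enough counts to be tested, namely 8 fibrillar, 8 basement membrane and 14 other. Of these 30, 2 rose and 0 fell in wild type with cerulein (edgeR's quasi-likelihood test, adjusted p below 0.05). Those 2 are 6.67% of the genes tested, whereas 30.7% of all 14329 genes tested in the same comparison passed (17.9% higher and 12.8% lower). The 2 that rose were Col27a1, a fibrillar chain known mainly from cartilage, and Col8a1, a short-chain network collagen known from vessel walls and the cornea. The median log2 fold change was 0.11 over the 30 collagen genes and 0.05 over all genes tested. The unadjusted p was below 0.05 for 8 of 30 collagen genes (26.7%), against 43.1% of all genes tested.

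Library C3 is in neither wild-type group but enters the estimate of spread that all groups share, and without it more collagen genes passed. Then 5 of 32 tested genes passed as higher and 0 as lower (37.9% of 14733 genes tested passed): Col27a1, Col8a1, Col6a3, Col11a2 and Col26a1. Col26a1 was kept for testing only through cerulein libraries (below), so its call is not independent support for a rise. These calls changed when single libraries were left out, and so did the share of all genes tested that passed. Leaving out each of the 12 libraries in turn, Col27a1 passed in 7 of 12 fits, and it was lost without W1, K5, R3, O3 or N3 (adjusted p up to 0.1). The log2 fold change of Col27a1 was 1.34 to 1.88 over these fits. Col8a1 passed in 5 of 12, and dropping S1 or a library of either wild-type group ended its call (up to 0.115). The log2 fold change of Col8a1 was 1.59 to 2.13. Col6a3 passed without K4, C3 or L4, and Col11a2 and Col26a1 passed only in the fit without C3 among these 12. Leaving out a wild-type library makes a compared group smaller. Of all genes tested, 12.4% (without O3) to 25.3% (without N3) then passed, against 30.7% with 12 libraries. Without S1 it was 26.5%. The calls lost in those fits are therefore not shown to be particular to collagen genes.

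**Figure D2:**
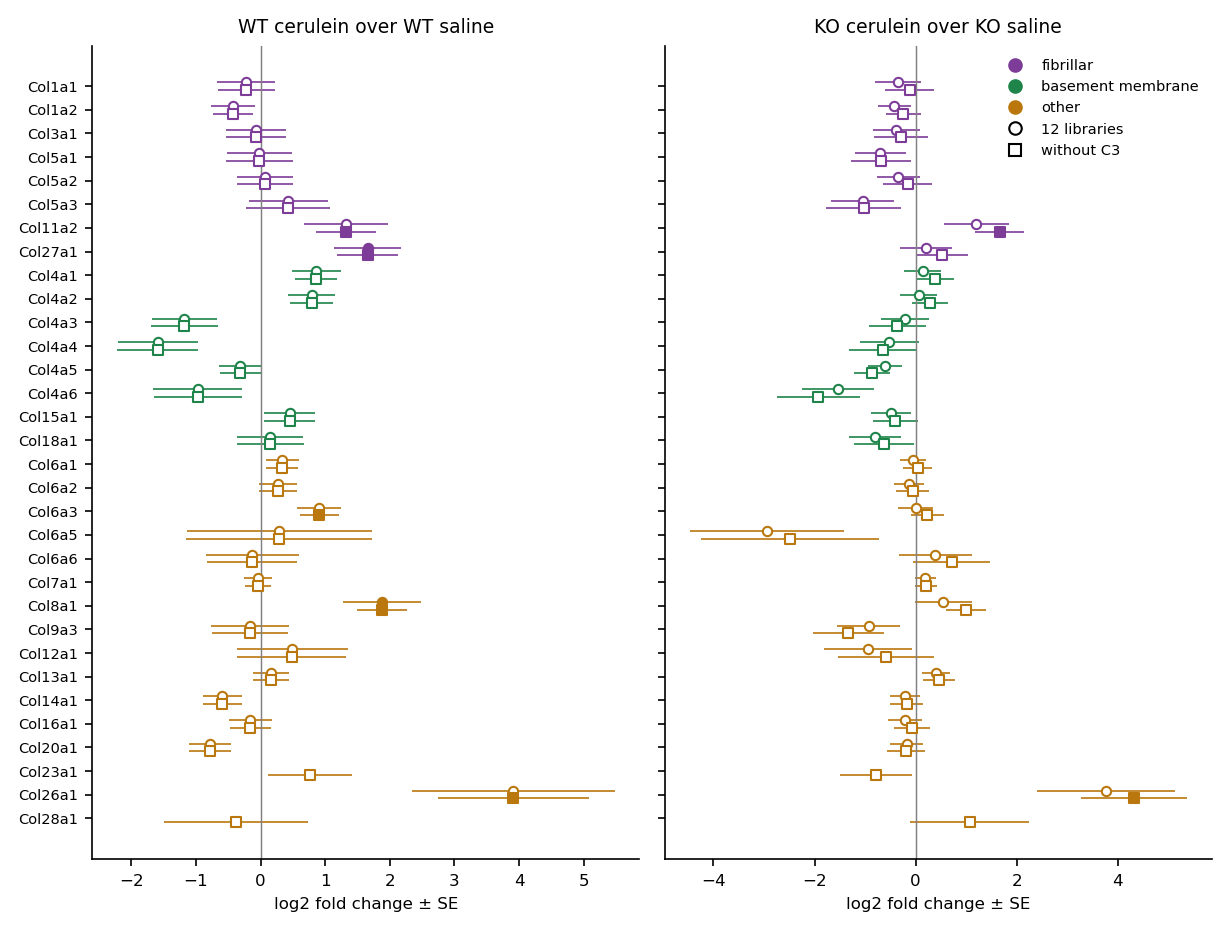
Log2 fold change with its SE for each collagen gene tested, cerulein over saline, in wild type (left) and in the labelled knockout (KO, right); circles are the fit on 12 libraries, squares the fit without C3, and filled symbols have an adjusted p below 0.05. In wild type the filled circles are Col27a1 at 1.66 and Col8a1 at 1.88, and in the labelled knockout the filled symbols are the squares of Col11a2 at 1.66 and Col26a1 at 4.32. Col26a1 was kept for testing only through cerulein libraries, so its call is not independent support for a rise.

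Counting separation in place of a test, 7 of the 30 genes had every wild-type cerulein library above every wild-type saline library, and 3 had every one below (52.3% of all genes tested did not overlap, 27.5% higher and 24.9% lower). The 7 were Col4a1, Col4a2, Col6a3, Col8a1, Col11a2, Col26a1 and Col27a1. The 3 were Col4a3, Col14a1 and Col20a1. Of the 44 genes, 14 were not tested for low counts: Col2a1, Col11a1, Col24a1, Col6a4, Col8a2, Col9a1, Col9a2, Col10a1, Col17a1, Col19a1, Col22a1, Col23a1, Col25a1 and Col28a1. The highest value of any of these 14 in any library was 0.779 CPM, for Col23a1 in N3. Col23a1 and Col28a1 were tested without C3, and neither passed.

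The genes of the main fibrils did not pass, and their values spread widely in wild type with cerulein and in the labelled knockout with saline. Col1a1 (ENSMUSG00000001506, GRCm38 chromosome 11, 94936224 to 94953042, plus strand), the alpha-1 chain of type I collagen, had 14.5, 9.34 and 32.8 CPM in wild type with cerulein (O1, O3, N3) and 18.8, 22.6 and 24.7 CPM in wild type with saline (W1, K5, R3). The cerulein values lay on both sides of the saline values, and the log2 fold change was -0.22 ± 0.45 (SE, n = 3 each, adjusted p = 0.743). Col1a1 in the labelled knockout had 22.8 (C2), 29.7 (L4) and 14.7 CPM (C3) with cerulein and 23.4, 43.1 and 19 CPM with saline (S1, K4, Q1), and these overlapped too. Col3a1 (ENSMUSG00000026043, chromosome 1, 45311538 to 45349706, plus strand) showed the same wide spread, with 48.6, 25.5 and 103 CPM in wild type with cerulein and 56.3, 59.8 and 70.3 CPM in wild type with saline. Its level was 81.4 (C2), 74.4 (L4) and 63.4 CPM (C3) in the labelled knockout with cerulein and 87.2, 146 and 52.1 CPM with saline. In both genotypes Col3a1 overlapped between treatments, at a log2 fold change of -0.07 ± 0.46 (adjusted p = 0.923) in wild type and -0.38 ± 0.46 (adjusted p = 0.615) in the labelled knockout.

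Col1a2 (ENSMUSG00000029661, chromosome 6, 4504814 to 4541544, plus strand), the alpha-2 chain of type I collagen, had 24.5, 15.9 and 39 CPM in wild type with cerulein and 26.4, 39.9 and 40.6 CPM in wild type with saline. Labelled knockout values were 33.7 (C2), 40.3 (L4) and 24 CPM (C3) with cerulein and 39.4, 57.5 and 34.1 CPM with saline. The groups overlapped in both genotypes, and the log2 fold change was -0.43 ± 0.34 (adjusted p = 0.36) in wild type. The level of Col1a1 per length was 0.502 to 0.758 of that of Col1a2 in the 12 libraries, but this order depends on the length used, since with merged exons Col1a1 averaged 3.5 RPKM and Col1a2 2.79 RPKM. The type V chains, which help set fibril width, did not pass either: the log2 fold changes in wild type were -0.02 (Col5a1), 0.07 (Col5a2) and 0.43 (Col5a3), each with an SE of 0.43 to 0.61. The 11 fibrillar genes summed to 146 ± 86.9 CPM in wild type with cerulein and 149 ± 17.2 CPM in wild type with saline (SD, n = 3 each). They summed to 159 ± 30.6 CPM in the labelled knockout with cerulein (176 CPM without C3) and 209 ± 93.6 CPM in the labelled knockout with saline.

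Within the fibrillar class, with 8 genes tested, 2 minor chains, unlike the major ones, were higher in all wild-type cerulein libraries. Of all genes tested, 27.5% were higher in this way. Col27a1 (ENSMUSG00000045672, chromosome 4, 63214004 to 63334991, plus strand) had 8.1, 11.1 and 16.7 CPM in wild type with cerulein and 3.62, 3.49 and 4.21 CPM in wild type with saline. Every cerulein value lay above every saline value, with group means of 12 ± 4.39 and 3.78 ± 0.385 CPM (SD, n = 3 each). The log2 fold change was 1.66 ± 0.52 (SE, adjusted p = 0.0342, 0.0189 without C3). Col27a1 in the labelled knockout had 3.32 (C2), 10.9 (L4) and 2.86 CPM (C3) with cerulein and 6.24, 6.1 and 2.5 CPM with saline, so that L4 alone was above its saline group, at a log2 fold change of 0.21 ± 0.51 (adjusted p = 0.817). The difference between the 2 genotypes' responses was -1.46 ± 0.72 on the log2 scale and did not pass (adjusted p = 0.812).

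Col11a2 (ENSMUSG00000024330, chromosome 17, 34039437 to 34066685, plus strand), a minor fibril chain known from cartilage, had 1.95, 2.18 and 2.34 CPM in wild type with cerulein and 0.323, 1.18 and 1.02 CPM in wild type with saline. The labelled knockout had 1.62 (C2), 3.54 (L4) and 0.422 CPM (C3) with cerulein and 1.09, 0.802 and 0.536 CPM with saline. All cerulein libraries but C3 exceeded all saline libraries of their genotype. Without C3 the log2 fold change was 1.32 ± 0.46 in wild type (adjusted p = 0.0425) and 1.66 ± 0.49 in the labelled knockout (adjusted p = 0.028), and with all 12 libraries neither passed (adjusted p = 0.14 and 0.277). These values rest on 5 to 136 counts per library.

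The 250 bases before the RefSeq start of Col27a1 and of Col8a1, the genes that rose with all 12 libraries, are printed here from RefSeq's table for GRCm38.p6, each on its gene's strand and with GC boxes (GGGCGG on either strand) in capitals. They lie at chr4:63215162-63215411 on the plus strand for Col27a1, downstream of the first exon of the longer GENCODE gene, and at chr16:57754738-57754987 on the minus strand for Col8a1.
Col27a1: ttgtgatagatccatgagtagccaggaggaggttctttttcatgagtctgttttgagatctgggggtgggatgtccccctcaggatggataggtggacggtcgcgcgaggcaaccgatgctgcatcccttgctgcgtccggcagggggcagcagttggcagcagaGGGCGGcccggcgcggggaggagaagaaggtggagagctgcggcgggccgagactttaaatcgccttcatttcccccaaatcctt
Col8a1: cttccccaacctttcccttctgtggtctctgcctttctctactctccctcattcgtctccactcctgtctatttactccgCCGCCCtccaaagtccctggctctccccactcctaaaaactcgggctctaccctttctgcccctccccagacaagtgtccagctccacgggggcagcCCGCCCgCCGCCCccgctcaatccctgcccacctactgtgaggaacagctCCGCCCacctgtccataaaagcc
The Col27a1 window holds 1 GC box and the Col8a1 window 4. Of the 44 genes, 35 had such a window by symbol, and 5 motifs were searched on both strands in it and in all 32851 windows of the table. The GC box was in 21 of 35 collagen windows (60%) and 32.7% of all windows, and CCAAT was in 12 (34.3%) and 33.8%. TATAAA was in 5 (14.3%) and 12.4%. The AP-1 motif TGANTCA was in 1 collagen window (2.86%), that of Col6a1, and 6.75% of all windows, and the CRE motif TGACGTCA, the kind of site that ATF family proteins are known to bind, was in 0 of 35 and 1.55% of all windows. Letters in a window do not show that a factor binds there, and motifs outside the 250 bases were not searched.

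The basement membrane class, with 8 genes tested, held a pair that was higher in every wild-type cerulein library and chains that were low. Of all genes tested, 27.5% were higher in every wild-type cerulein library. Col4a1 (ENSMUSG00000031502, chromosome 8, 11198423 to 11312826, minus strand) had 108, 82.3 and 179 CPM in wild type with cerulein and 75.5, 54.1 and 73.7 CPM in wild type with saline. The 3 cerulein libraries exceeded the 3 saline libraries, but the log2 fold change of 0.86 ± 0.38 did not pass (adjusted p = 0.105, and 0.0624 without C3). Col4a2 (ENSMUSG00000031503, chromosome 8, 11312805 to 11449287, plus strand) had 62.3, 50.1 and 105 CPM in wild type with cerulein and 46, 34.5 and 45.8 CPM in wild type with saline. It too separated without passing, at 0.79 ± 0.36 (adjusted p = 0.119, and 0.0849 without C3). DESeq2 without C3 called both (adjusted p = 0.0246 for Col4a1 and 0.0439 for Col4a2), limma-voom without C3 called neither (0.0759 and 0.101), and without C3 and N3 edgeR gave log2 fold changes of 0.49 and 0.42 (adjusted p = 0.232 and 0.308).

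Col4a1 in the labelled knockout had 139 (C2), 124 (L4) and 68.3 CPM (C3) with cerulein and 93.6, 144 and 63.7 CPM with saline, and Col4a2 followed with 78.2 (C2), 73.7 (L4) and 44.1 CPM (C3) against 55.9, 92.3 and 39.7 CPM. Saline library K4 was above all cerulein libraries for both genes, and the log2 fold changes were 0.14 ± 0.37 and 0.06 ± 0.36 (adjusted p = 0.835 and 0.926). The 2 genes kept close to 1 ratio: the level of Col4a1 per length was 1.51 to 1.73 times that of Col4a2 in all 12 libraries. Col4a1 and Col4a2 are known to be transcribed in opposite directions from a shared promoter, and their GENCODE models overlap head to head by 22 bases, at chr8:11312805-11312826. Those bases are printed on the strand of Col4a2, with a GC box in capitals, because they are the stretch in which reads of the 2 genes can coincide.
Col4a1 and Col4a2: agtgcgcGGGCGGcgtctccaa

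The other type IV chains, which are known from kidney, lung and smooth muscle, averaged 0.0566 (Col4a3), 0.062 (Col4a4), 0.37 (Col4a5) and 0.0832 RPKM (Col4a6). None of the 4 passed in wild type, where the log2 fold changes were -1.18 ± 0.50 (Col4a3), -1.59 ± 0.62 (Col4a4), -0.31 ± 0.34 (Col4a5) and -0.97 ± 0.69 (Col4a6). Their signs were opposite to those of Col4a1 and Col4a2, so the median over the 8 genes of the class was -0.08. Without C3 the labelled knockout gave -0.36, -0.65, -0.86 and -1.93 for Col4a3, Col4a4, Col4a5 and Col4a6, again with none past the threshold. Col15a1 and Col18a1 encode collagens of vessel and epithelial basement membranes, and the end of the Col18a1 chain is released as endostatin. Col15a1 had 15.3, 11.1 and 26 CPM in wild type with cerulein and 14.6, 10.2 and 13.8 CPM in wild type with saline, which overlapped (log2 fold change 0.45 ± 0.39, adjusted p = 0.409). It had 12.5 (C2), 15.3 (L4) and 11.4 CPM (C3) in the labelled knockout with cerulein and 17, 28.7 and 9.41 CPM with saline. Col18a1 stood at 0.15 ± 0.51 in wild type (adjusted p = 0.849).

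The 8 basement membrane genes summed to 229 ± 96.6 CPM (151 to 337) in wild type with cerulein and 139 ± 19.6 CPM (116 to 152) in wild type with saline (SD, n = 3 each), which overlap by the lowest cerulein library, O3. In the labelled knockout the sums were 201 ± 58 CPM with cerulein (235 CPM without C3, 135 CPM in C3) and 203 ± 87 CPM with saline. N3 carried much of the wild-type difference: the log2 ratio of the summed means was 0.72 with it and 0.33 without it, and for the fibrillar sum it was -0.03 with N3 and -0.62 without it. As a share of all collagen RPKM, the class took 34.7 to 40% in wild type with cerulein and 24 to 28.9% in wild type with saline, and 34.1 and 35.2% in C2 and L4 (27.6% in C3) against 26.8 to 33.9% in the labelled knockout with saline.

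**Figure D3:**
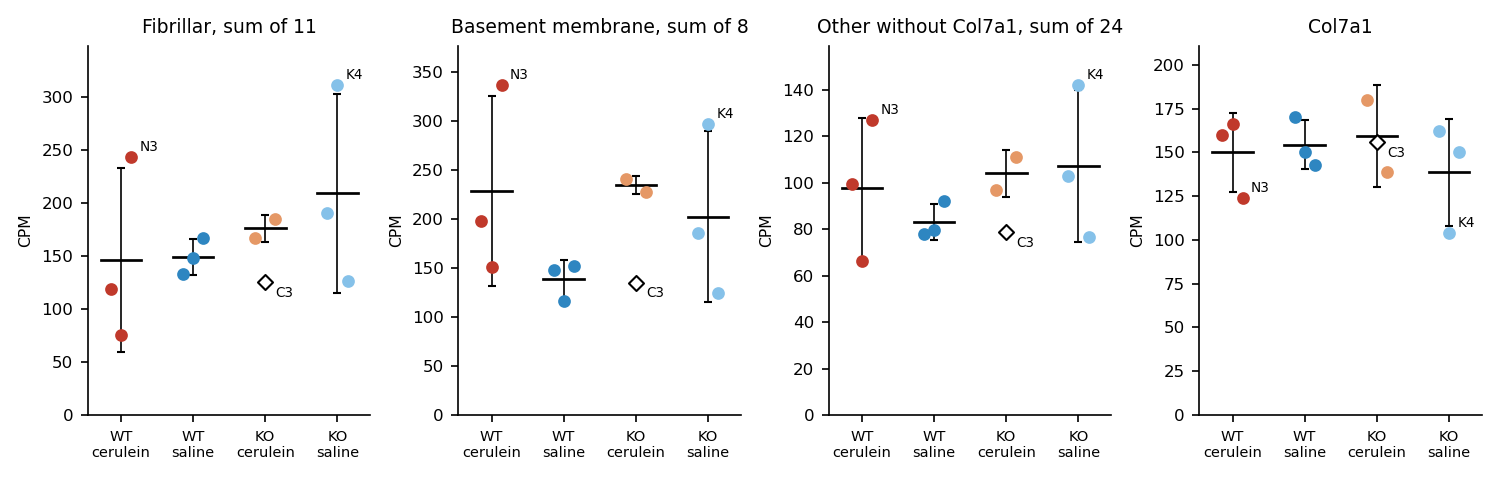
Summed CPM per library for the 11 fibrillar genes, the 8 basement membrane genes, the 24 other genes without Col7a1, and Col7a1 alone, in the 4 groups (KO, labelled knockout); bars are mean and SD, C3 is the open diamond and is left out of its group's bar. N3 and K4 are the highest points of their groups in the first 3 panels (fibrillar 243 and 311 CPM) and the lowest in the Col7a1 panel (124 and 104 CPM).

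Ratios between chains within a library do not depend on library scaling, and some of them separated the treatments. The ratio of Col4a1 to Col1a1 per length was 6.65, 7.9 and 4.9 in wild type with cerulein (O1, O3, N3) and 3.6, 2.15 and 2.67 in wild type with saline (W1, K5, R3). In the labelled knockout it was 5.46 (C2), 3.76 (L4) and 4.17 (C3) with cerulein and 3.59, 2.99 and 3.01 with saline (S1, K4, Q1). Cerulein libraries lay above saline libraries in both genotypes, C3 included. The summed type IV chains over the summed fibrillar chains gave 1.07 to 1.61 in wild type with cerulein and 0.557 to 0.839 in wild type with saline, and 0.82 to 1.15 in the labelled knockout with cerulein, C3 at 0.82 being the lowest, and 0.69 to 0.752 with saline. The ratio of Col4a1 to Col3a1 was 1.46 to 2.71 in wild type with cerulein and 0.761 to 1.13 in wild type with saline, without overlap, but in the labelled knockout it was 1.43 (C2), 1.41 (L4) and 0.905 (C3) with cerulein and 0.83 to 1.03 with saline, where C3 overlapped (exact permutation test, two-sided, p = 0.2). In these 5 comparisons without overlap, and for Col6a1 to Col6a3 in wild type (below), the exact permutation test, two-sided, gave p = 0.1. That is the smallest p that 3 against 3 allows, so no comparison of this kind could pass 0.05. Each had an adjusted p of 0.267 after Benjamini-Hochberg adjustment over 16 ratio tests. The ratios were chosen after the values had been seen, and no share without overlap was computed over other ratios. For single genes in CPM, 52.3% of all genes tested did not overlap in wild type and 15.8% in the labelled knockout. Separation of a ratio is therefore not shown to be particular to these chains.

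**Figure D4:**
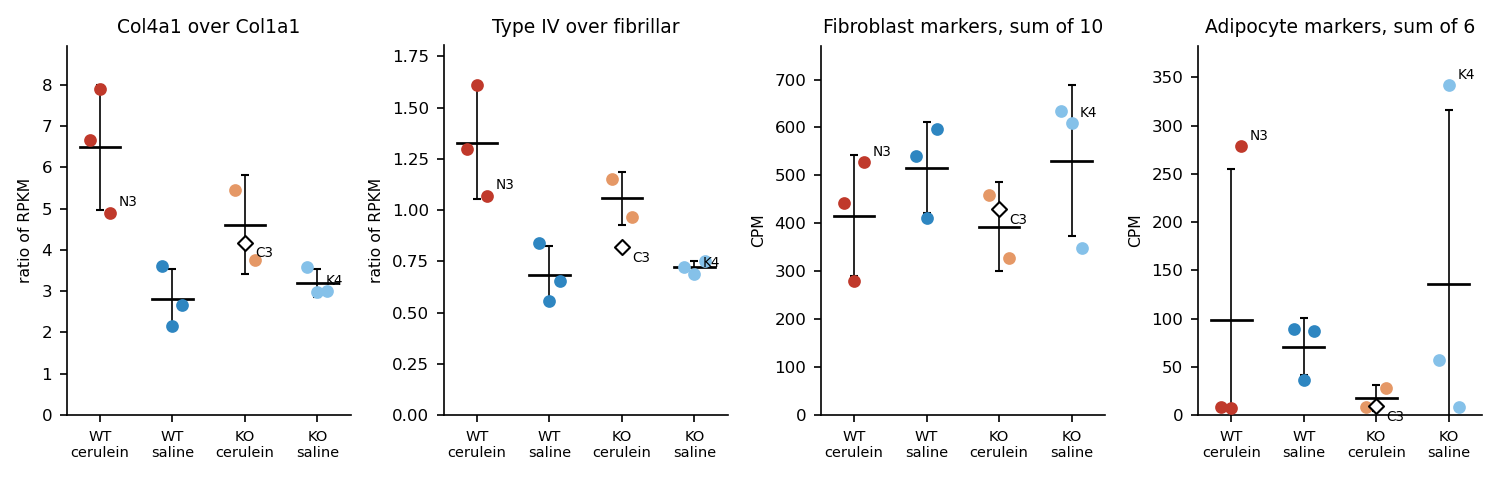
Per library, the ratio of Col4a1 to Col1a1 and of summed type IV to summed fibrillar chains (both from RPKM), and the summed CPM of 10 fibroblast and stellate cell markers and 6 adipocyte markers (KO, labelled knockout; bars mean and SD, C3 the open diamond, left out of the bar). Col4a1 over Col1a1 is 3.76 to 7.9 in the 6 cerulein libraries and 2.15 to 3.6 in the 6 saline libraries, and adipocyte markers peak in N3 (279 CPM) and K4 (342 CPM).

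Among the other collagens, the abundant Col7a1 varied little between libraries. Col7a1 (ENSMUSG00000025650, chromosome 9, 108953586 to 108984875, plus strand) had 160, 166 and 124 CPM in wild type with cerulein and 170, 150 and 143 CPM in wild type with saline, and 180 (C2), 139 (L4) and 156 CPM (C3) in the labelled knockout with cerulein and 162, 104 and 150 CPM with saline. All groups overlapped, its highest library was 1.73 times its lowest, and the log2 fold change was -0.04 ± 0.21 in wild type (adjusted p = 0.9) and 0.19 ± 0.21 in the labelled knockout (adjusted p = 0.578). The gene also shares 36 exonic bases with the microRNA gene Mir711 on the same strand.

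Type VI collagen forms beaded filaments around cells from the products of Col6a1, Col6a2 and a longer chain, usually that of Col6a3. Col6a1 (ENSMUSG00000001119, chromosome 10, 76708792 to 76726168, minus strand) had 26.5, 18.5 and 33.7 CPM in wild type with cerulein and 20.9, 18.4 and 23.1 CPM in wild type with saline. It had 27.8 (C2), 26.1 (L4) and 21.9 CPM (C3) in the labelled knockout with cerulein and 27.8, 33.4 and 17.4 CPM with saline. Col6a2 (ENSMUSG00000020241, chromosome 10, 76595762 to 76623630, minus strand) had 26, 17.3 and 33.2 CPM in wild type with cerulein and 23.9, 17.4 and 22.2 CPM in wild type with saline, and 28 (C2), 24.2 (L4) and 22.3 CPM (C3) against 27.7, 37.2 and 16.5 CPM in the labelled knockout. Both overlapped between treatments in both genotypes, and their ratio per length stayed between 0.841 and 1.04.

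Col6a3 (ENSMUSG00000048126, chromosome 1, 90765923 to 90843971, minus strand), unlike Col6a1 and Col6a2, did not overlap between treatments in wild type. It had 19.9, 12.2 and 20.1 CPM in wild type with cerulein and 11, 8.32 and 8.47 CPM in wild type with saline, without overlap. The log2 fold change was 0.91 ± 0.34 (adjusted p = 0.0658) with 12 libraries and 0.91 ± 0.30 (adjusted p = 0.0367) without C3. In wild type, Col6a1 per length was 3.29 to 4.13 times Col6a3 with cerulein and 4.68 to 6.72 times with saline. The exact permutation test, two-sided, gave p = 0.1, the smallest possible, and 0.267 after Benjamini-Hochberg adjustment over the 16 ratio tests. In the labelled knockout this ratio was 3.46 to 6.38 with cerulein and 4.3 to 6.69 with saline, which overlapped. Col6a3 in the labelled knockout had 11.8 (C2), 18.6 (L4) and 8.44 CPM (C3) with cerulein and 10.3, 19.1 and 9.59 CPM with saline, which overlapped (log2 fold change 0.23 ± 0.33 without C3, adjusted p = 0.637). Col6a5, another long type VI chain, varied widely between libraries, at 0.553, 0.0968 and 8.78 CPM in wild type with cerulein and 0.453, 3.29 and 3.94 CPM in wild type with saline. It reached 17.6 CPM in K4, and its highest values were in N3 and K4.

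Col8a1 (ENSMUSG00000068196, chromosome 16, 57624258 to 57754737, minus strand) rose in wild type. It had 1.84, 0.823 and 1.38 CPM in wild type with cerulein and 0.388, 0.308 and 0.394 CPM in wild type with saline, from 17 to 50 counts and from 6 to 10 counts per library. The groups did not overlap, and the log2 fold change was 1.88 ± 0.60 (adjusted p = 0.0357, and 0.00328 without C3). Col8a1 in the labelled knockout had 1.93 (C2), 1.38 (L4) and 0.281 CPM (C3) with cerulein and 0.795, 0.668 and 1.01 CPM with saline. C2 and L4 were above all saline libraries and C3 below them, and the gene did not pass there (log2 fold change 0.55 ± 0.56, adjusted p = 0.547, and 0.0783 without C3).

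Col26a1 (ENSMUSG00000004415, chromosome 5, 136741759 to 136883209, minus strand), which encodes a little-studied secreted protein first known from reproductive tissue, had 0.553, 0.29 and 0.106 CPM in wild type with cerulein and 0, 0 and 0.0394 CPM in wild type with saline. In the labelled knockout it had 0.869 (C2), 0.573 (L4) and 0 CPM (C3) with cerulein and 0.0837, 0 and 0 CPM with saline. The gene was close to undetected in saline and in C3. In wild type this is 24 counts against 1, a ratio of 19 (95% counting interval 3.1 to 783), and in the labelled knockout without C3 45 counts against 2, a ratio of 21.9 (5.72 to 186). These intervals pool the counts of a group, hold counting error only and leave out the spread between libraries. Without C3 Col26a1 passed in edgeR in wild type (adjusted p = 0.0222) and in the labelled knockout (adjusted p = 0.0108). With all 12 libraries it did not pass (0.0808 and 0.143), and its fitted log2 fold changes depend on the prior count. Its highest counts were 15 (O1), 23 (C2) and 22 (L4), all with cerulein, and no saline library held more than 2. Col26a1 was thus kept for testing only through the treatment in which it was high, so these calls are not independent support for a rise.

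**Figure D5:**
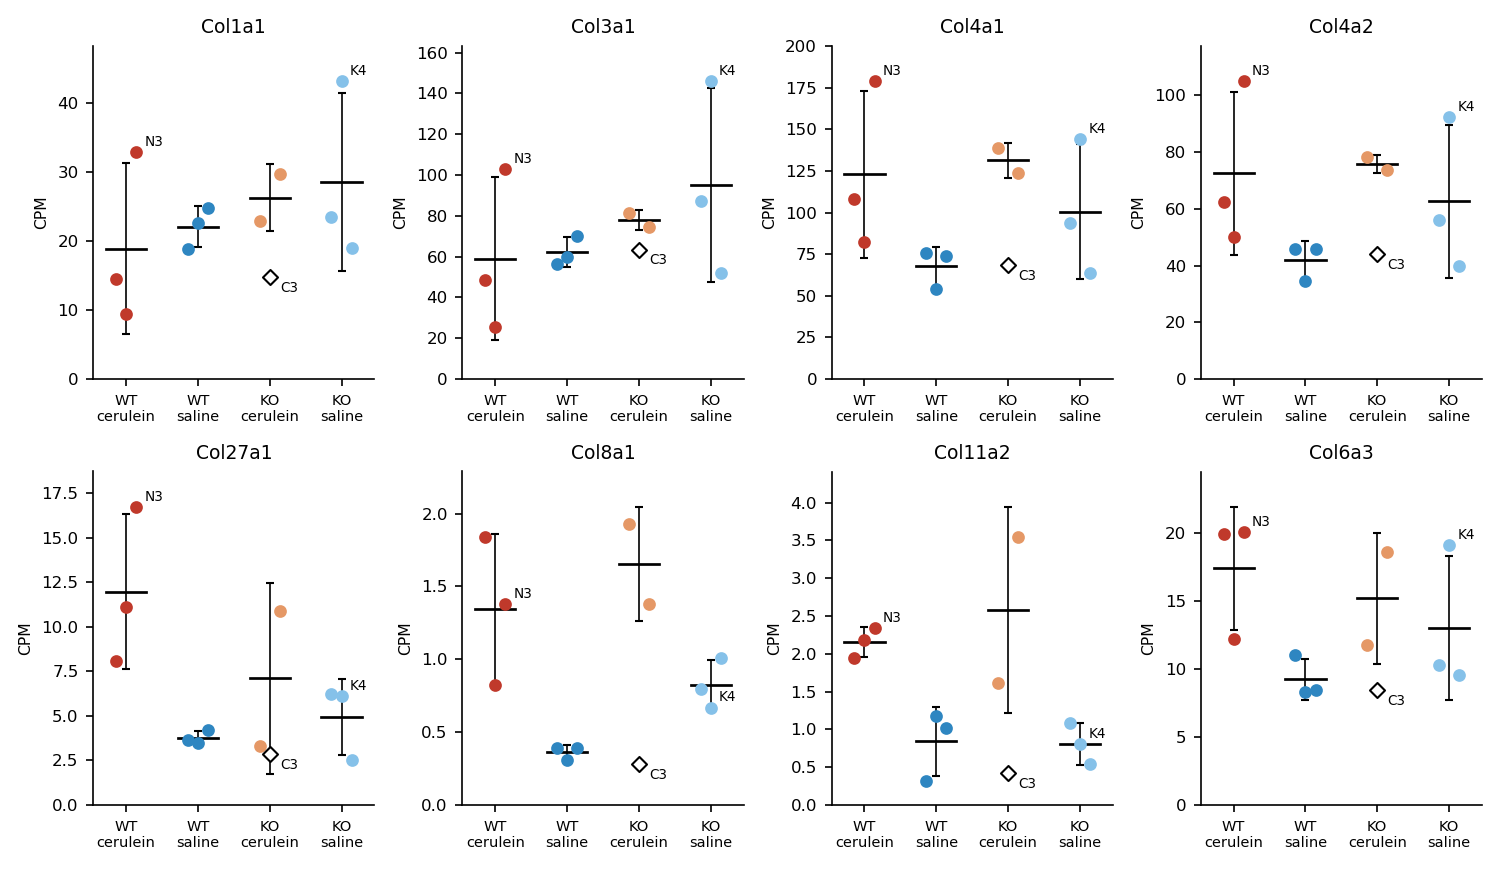
CPM per library of 8 collagen genes in the 4 groups (KO, labelled knockout; bars mean and SD, C3 the open diamond, left out of its group's bar). Col27a1 (8.1 to 16.7 against 3.49 to 4.21 CPM) and Col8a1 (0.823 to 1.84 against 0.308 to 0.394 CPM) do not overlap between wild type with cerulein and with saline, and N3 and K4 are the highest points for Col1a1, Col3a1, Col4a1 and Col4a2 in their groups.

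The remaining genes of the class did not pass. Col14a1 and Col20a1, which belong to the fibril-associated collagens with interrupted helices, were lower in every wild-type cerulein library, with log2 fold changes of -0.59 ± 0.30 (adjusted p = 0.154) and -0.78 ± 0.33 (adjusted p = 0.0959). Col12a1 and Col16a1, of the same family, stood at 0.49 ± 0.86 and -0.16 ± 0.33, and Col13a1, a transmembrane collagen, at 0.16 ± 0.28. Col20a1 shares 79 exonic bases with an unnamed gene model on its strand.

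In the labelled knockout, cerulein against saline gave 0 of 30 collagen genes with all 12 libraries, where 0% of all genes tested passed. In edgeR the unadjusted p was below 0.05 for 1 collagen gene, Col26a1, and for 22.7% of all genes tested. DESeq2 also called 0 collagen genes, although it called 9.48% of all genes tested, and limma-voom called 0 of either. Without C3, 2 of 32 collagen genes (6.25%) passed as higher and 0 as lower, Col11a2 and Col26a1, against 29.2% of all 14733 genes tested (18.7% higher, 10.5% lower). Of these, Col26a1 was kept for testing only through cerulein libraries, so its call is not independent support for a rise. Without C3, 4 genes had both cerulein libraries above every saline library (Col8a1, Col11a2, Col13a1 and Col26a1) and 3 had both below (Col4a4, Col4a5 and Col4a6), where 52.4% of all genes tested did not overlap (29% higher, 23.4% lower). With C3, 0 were above and 2 below (Col4a5 and Col4a6), against 15.8% of all genes tested (9.41% higher, 6.35% lower).

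Between genotypes no collagen gene passed. The labelled knockout with saline against wild type with saline gave 0 of 30 by edgeR, 0 by DESeq2 and 0 at an unadjusted p below 0.05, as 0% of all genes tested passed. The median log2 difference over collagen genes was 0.39, against 0.01 over all genes tested, and it was 0.04 without K4, so that 1 library decided it. The groups did not overlap for Col4a5 and Col8a1, both higher in the labelled knockout (4.84% of all genes tested did not overlap, 2.09% higher and 2.74% lower). The labelled knockout with cerulein against wild type with cerulein also gave 0 of 30, by edgeR (0% of all genes tested) and by DESeq2 (0.0768% of all genes tested). In edgeR the unadjusted p was there below 0.05 for 1 gene, Col14a1, at a log2 difference of 0.81 ± 0.30 (adjusted p = 0.604), and it was the only gene of the 30 without overlap (9.76% of all genes tested, 5.47% higher and 4.29% lower). Without C3 the groups did not overlap for Col14a1 and Col26a1, higher, and Col9a3, lower, of 32 (9.49% of all genes tested higher and 6.46% lower). The difference between the genotypes' responses to cerulein passed for 0 of 30 genes by edgeR and by DESeq2 (0% and 0.00698% of all genes tested). The unadjusted p was below 0.05 for 0 collagen genes in edgeR and 1 in DESeq2, against 4.15% and 5.32% of all genes tested.

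Library by library, much of the variation in collagen mRNA ran across the groups. K4, given saline, was the highest of the 12 libraries for 13 of the 30 genes tested and for 6 of the 8 fibrillar genes. N3, given cerulein, was among the top 2 for 17 of the 30 and for 7 of 8 fibrillar genes, whereas O3, also given cerulein, was the lowest for 14 of the 30 and for 6 of 8 fibrillar genes. Col7a1 ran the other way and was lowest in K4 and next lowest in N3. Such ranks are not given here for all genes tested, so this pattern is not shown to be particular to collagen genes. Without N3 the median log2 fold change of the collagen genes in wild type was -0.48, against -0.02 over all genes tested, and with N3 it was 0.11 against 0.05.

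Markers of some other cells, but not of all, were also highest in N3 and K4. Of the 7 lymphocyte markers, 5 were tested with 12 libraries, and all 7 summed to 238 CPM in N3, 118 CPM in K4 and 108 CPM in W1, against 1.51 to 32.8 CPM in the other 9. The 10 fibroblast and stellate cell markers summed to 279 to 527 CPM in wild type with cerulein and 412 to 597 CPM in wild type with saline, and to 327 to 459 CPM and 349 to 634 CPM in the labelled knockout with cerulein and with saline. Their sum did not peak in N3 (527 CPM) or K4 (609 CPM), and the highest was in saline library S1 (634 CPM). None of the 10 fibroblast and stellate cell markers passed in wild type, and their median log2 fold change was -0.40. The 7 mural cell markers (0 passed) and the 8 endothelial markers (1 passed, Egfl7 at -0.74) had medians of -0.37 and -0.28. Of 6 acinar markers 3 fell in wild type, and of 7 duct markers 4 rose and 1 fell, where 17.9% of all genes tested rose and 12.8% fell. Islet markers summed to 11472 CPM in L4 and to 459 to 3585 CPM elsewhere, and L4 was also the highest of the labelled knockout for Col11a2 and Col27a1. In wild type with cerulein the order was the opposite. Islet sums were 3585 (O1), 2458 (O3) and 1410 CPM (N3), where Col27a1 had 8.1, 11.1 and 16.7 CPM and Col11a2 1.95, 2.18 and 2.34 CPM. Both orders cover few libraries and were picked after the values were seen. A link between islet content and these genes was not tested. None of 6 macrophage, 6 adipocyte, 7 islet and 4 tested mesothelial markers passed in wild type. No marker of any list was at 0 in all libraries. The part of cell composition in the collagen values was not tested.

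Genes that make, move and bind collagen changed in both directions in wild type, at a share close to that of all genes. Over 8 pathway lists 15 rose and 9 fell of 86 tested (27.9%), against 30.7% of all genes tested (17.9% higher and 12.8% lower). The first list holds enzymes that hydroxylate or glycosylate chains or isomerize prolines, and 2 rose and 2 fell of 13 tested (median log2 fold change 0.01). Plod3, a lysyl hydroxylase, averaged 52.8 CPM in wild type with cerulein and 19.7 CPM with saline (log2 fold change 1.42), and P4ha2, a prolyl hydroxylase subunit, rose by 0.61. Ppib, a proline isomerase of the collagen modification complex, fell to 122 CPM in wild type with cerulein, against 288 CPM in wild type with saline (-1.24). Colgalt2, a collagen galactosyltransferase, fell by 1.95 at a low level (0.265 CPM in wild type with cerulein, 1.04 CPM with saline). Of 8 genes for chaperones and export, 0 rose and 2 fell (median -0.56): Mia3, which loads procollagen into transport carriers, by 0.91, and Sec23a, a coat protein of those carriers, by 0.56.

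Of 11 tested genes for propeptide removal and crosslinking 2 rose and 1 fell (median 0.14). The lysyl oxidase Loxl4 averaged 2.59 CPM in wild type with cerulein and 0.566 CPM with saline (2.20), the propeptidase Tll1 rose by 1.06 and the enhancer protein Pcolce2 fell by 1.19. Of 9 tested genes for breakdown, 1 rose, the collagenase Mmp13 (5.32 against 0.281 CPM, log2 fold change 4.36), and 1 fell, the membrane protease Mmp15 (-1.63), with a median of 0.22. Of 8 tested collagen receptors 3 rose and 1 fell (median 0.17). The tyrosine kinase Ddr1 averaged 118 CPM in wild type with cerulein and 36.1 CPM with saline (1.71), and the integrin chains Itgb1 and Itga1 rose by 1.04 and 0.81. Itga11 fell by 2.34 at a low level, 0.117 CPM in wild type with cerulein and 0.627 CPM with saline. The cerulein mean lies within the 0.0781 to 0.194 CPM that a library with no count allows.

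Laminins and their partners in the basement membrane gave 3 higher and 2 lower of 14 tested (median -0.03). The laminin chain Lamc1 averaged 51 CPM in wild type with cerulein and 21.3 CPM with saline (1.26), Lama5 rose by 1.02, and Lama3 and the proteoglycan Agrn fell by 1.01 and 0.65. Of 10 tested partners of fibrils 1 rose, Thbs1, at 224 CPM in wild type with cerulein and 54.9 CPM with saline (2.03), with a median of 0.18. Of 13 fibrogenic signalling genes 3 rose and 0 fell (median 0.71): Tgfb1 by 1.57, its signal transducer Smad3 by 1.45 and its receptor Tgfbr1 by 0.85. In the labelled knockout 0 genes of these 8 lists passed with 12 libraries. Without C3, 14 of 87 rose there and 5 fell (21.8%, against 29.2% of all genes tested). The modification enzymes Plod3 (1.42), P3h2 (1.09) and P4ha2 (0.89) rose and Ppib (-1.22) fell, and of the export genes Sec24d (1.05) rose and Mia2 (-0.81), Creb3l1 (-0.64) and Mia3 (-0.53) fell. Loxl4 (1.73), Ddr1 (1.59), Itgb1 (1.02), Lama5 (0.90), Lamc1 (0.77), Thbs1 (1.83), Smad3 (1.85), Tgfb2 (1.56) and Pdgfb (0.88) also rose, and Mmp15 (-1.79) fell.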

How the data were processed

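RNA of whole pancreas was counted per gene in 12 libraries. Per the labels, libraries were made with an Illumina stranded kit for total RNA, and HTSeq, DESeq2 and mm10 are named in the submitters' processing notes. The deposited values are whole-number counts per Ensembl gene, not normalized by the authors. Not given in the sources used here are how reads were aligned, which annotation was used and how strand was treated, so reads of overlapping genes may be shared. Of 49585 genes 49326 were matched by identifier to GENCODE M21 (GRCm38).

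Tests used R 4.3.3 and edgeR 4.0.16: filterByExpr on the 4 groups, TMM scaling, 1 robust quasi-likelihood model of all 12 libraries, two-sided. P-values were adjusted by Benjamini and Hochberg's method across every gene in the fit, and 0.05 was the threshold. An SE is the size of the log2 fold change over the root of its F statistic. The same fit without C3 stands beside it. DESeq2 1.42.0 and limma 3.58.1 were alternatives. Python 3.11.15, pandas 2.3.3, NumPy 2.4.6 and matplotlib 3.10.9 made the tables and figures. The code was tested on simulated data. RPKM divides CPM by the length of the transcript with the longest coding sequence. Promoter windows are RefSeq's.

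The collagen genes, the classes and the gene lists were chosen with earlier results of these data known. Values per library are given for collagen genes past the threshold in any comparison, with or without C3, and for the 3 with the highest mean RPKM in each class. Of each pathway list, genes past the threshold are named, at most 4 and the most changed first. Genes, ratios and library codes singled out beyond this rule, such as Col6a5, were chosen after their values were seen. Results of some listed genes are not reported here.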

Additional observations from a re-analysis of the deposited data

How the results depend on the processing

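In wild type 2 collagen genes passed, Col27a1 and Col8a1, and the same 2 passed with RLE size factors, plain library totals, TMM without the 50 most abundant genes, and a minimum of 10 counts in 6 libraries. Of all genes tested, 30.7% passed in the main fit and 28.5 to 32.5% in these alternatives. Without a filter 1 passed (Col8a1), against 13.4% of all genes tested, and with limma-voom 1 (Col27a1), against 28%. With DESeq2 4 passed (also Col6a3 and Col4a4, the last lower), against 34.8% of all genes tested. With only the wild-type groups in the fit 4 passed (also Col6a3 and Col11a2), against 41.8%. Leaving out 1 library at a time gave 0 to 5 in wild type, with 5 higher without C3 and 0 without K5, R3 or O3, and the calls included lower genes without W1 (0 higher, 2 lower), O1 (1 and 1) and N3 (0 and 1). Over these fits the share of all genes tested that passed in wild type ran from 12.4% (without O3) to 37.9% (without C3). Leaving out 1 library at a time gave 0 to 2 in the labelled knockout, with 2 without C3. There 29.2% of all genes tested passed without C3 and 0% without any other library. These alternatives were chosen after seeing the data: with C3 left out, DESeq2 gave 7 in wild type and 2 in the labelled knockout, and limma-voom 5 and 2. Of all genes tested, DESeq2 then called 38.9% and 31.1%, and limma-voom 37.3% and 29.1%. With C3 and N3 left out edgeR gave 5 and 3 (38% and 32.1% of all genes tested). The 5 were Col8a1 and Col26a1, higher, and Col1a2, Col14a1 and Col4a6, lower. With C3 and K4 left out edgeR gave 6 and 1 (38.7% and 26.3% of all genes tested). For each such change that leaves out no sample the cause was not tested. In the other 3 comparisons 0 passed under every alternative run. The fit on only the groups compared was not run for the difference between responses, which needs all 4 groups.

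The log2 ratio of summed CPM, wild type with cerulein over saline, was 0.72 for basement membrane genes and -0.09 as a median over members in place of the sum. For the other genes it was 0.06, and 0.36 with plain totals, -0.02 with TMM without the 50 most abundant genes, and 0.22 as a median. For the other genes in the labelled knockout it was 0.05, and 0.25 with plain totals. Plain totals moved the median of all genes by 0.29 in wild type, where 78.4% of calls were then higher, against 58.4%, and by 0.20 in the labelled knockout. No direction of a called gene reversed. No paired analysis was possible because the groups have no replicate code in common. Depth limits the 14 untested genes and the calls of Col8a1, Col11a2 and Col26a1, whose saline libraries held 0 to 26 counts.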
